A study of Homo sapiens with 12 samples.

Results

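The SMAD genes and the SMAD corepressor genes SKI and SKIL were followed through RNA-seq of HEYA8 cells, an ovarian cancer line, that differed in the glycosaminoglycan attachment sites of betaglycan, the co-receptor encoded by TGFBR3. The members were the 10 rows of the count table with the symbols SMAD1, SMAD2, SMAD3, SMAD4, SMAD5, SMAD6, SMAD7, SMAD9, SKI and SKIL, out of 56269 genes, and all 10 were among the 16069 genes that passed a filter on low counts. Of the 12 libraries, 3 came from cells labelled Control (control vector), 3 from dGAG (betaglycan with both attachment serines mutated) and 3 each from S534A and S545A (betaglycan in which the serine that the name gives is replaced by alanine, so that the other attachment site remains). Cells of the dGAG, S534A and S545A groups carried a stable pHIV-dTomato lentiviral construct and were sorted for dTomato. The paper does not name the backbone of the control vector. No source used here gives more than 1 sorted population per construct, and the cells keep their own TGFBR3 gene. Every group was harvested at steady state in regular growth medium, RPMI with serum, and without added ligand. One S545A library, replicate 3, is titled S545S and was assigned by its genotype label. The levels are those of mRNA in cells grown in serum without added ligand, and phosphorylation or location of the SMAD proteins was not measured here.

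SMAD proteins carry signals of the TGF-β family from the receptors to the nucleus. Activated type I receptors phosphorylate the receptor SMADs, SMAD2 and SMAD3 after TGF-β or activin and SMAD1, SMAD5 and SMAD9 after bone morphogenetic proteins (BMPs), and these join the common partner SMAD4 on target genes. SMAD6 and SMAD7 are inhibitory SMADs that are themselves induced by the pathway and act back on receptors and receptor SMADs, while SKI and SKIL (also called SnoN) bind SMAD complexes and hold target genes down, SKIL being itself a target of TGF-β.

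The 3′ ends of the coding sequences are shown because they hold the feature that separates receptor SMADs from the others. The last 30 coding bases before the stop codon of the longest coding transcript of each gene in GENCODE 29 follow, with serine codons among the last 4 codons in capitals. 
SMAD2: tccccttcagtgcgttgcTCAAGCatgTCA
SMAD3: tccccaagcatccgctgtTCCAGTgtgTCT
SMAD1: tcacctcataatcctattTCATCTgtaTCT
SMAD5: tcccctctgaaccccataTCTTCTgttTCA
SMAD9: tctccacataaccccattTCTTCAgtgTCT
SMAD4: atgccgattgcagacccacaacctttagac
SMAD6: tggctggagatcctcctcaacaaccccaga
SMAD7: tgctggctagaggtcatcttcaacAGCcgg
In the 5 receptor SMADs, 3 of the last 4 codons encode serine in the order serine, serine, any residue, serine, the stretch that type I receptors phosphorylate. SMAD4 and SMAD6 have no serine codon there and SMAD7 has 1.

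Several properties of the libraries bear on what follows. Total counts ran from 16410001 to 29504297 per library. TGFBR3 was 413 to 574 CPM (reads scaled to library size by TMM) in the 6 S534A and S545A libraries. It was 260, 20.3 and 21.4 CPM in the libraries labelled dGAG and 15.9, 259 and 259 CPM in those labelled Control, which goes against these labels in libraries 2 and 3 of both groups, so each direction involving either group carries this limit. Libraries 2 and 3 of Control, dGAG and S545A were far more alike than other pairs of one group (chi-square per degree of freedom 1.40 to 1.94 against 16.5 to 74.4). Pairs of different genotypes ran from 3.86 (S534A and S545A replicates 1) to 119 (dGAG replicate 1 and S534A replicate 2). Some libraries of different genotypes were thus more alike than those other pairs of one group. S534A replicate 2 was the highest of the 12 libraries for 26.1% of tested genes and the lowest for 25.4%, more than any other library. Next came dGAG replicate 1, the highest for 16.3% and the lowest for 16%, and the lowest for 3 members (SMAD1, SMAD9 and SKI). HSPA5, an endoplasmic reticulum chaperone, was 287 CPM in S534A replicate 2, 11860 CPM in dGAG replicate 1 and 1228 to 3906 CPM elsewhere. The epithelial markers PAX8 (193 to 295 CPM), KRT7, KRT8 and KRT18 were expressed. MSLN (6.9 to 18.04 CPM), WT1 (3.417 to 8.376 CPM) and EPCAM (0.3671 to 1.765 CPM) were lower, and MUC16 and CDH1 had 0 counts in every library. The 4 mesenchymal markers summed to 3087 to 4811 CPM, most of it VIM (2343 to 3132 CPM). FN1 was 321.2 to 1412 CPM, CDH2 114.6 to 149.8 CPM and ZEB1 94.9 to 144.3 CPM. The 4 leukocyte markers summed to at most 0.136 CPM. Of the 3 endothelial markers, PECAM1 was under 1 CPM whereas CDH5 was 169 to 431 CPM.

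By level per kilobase of annotated exon, the median over the 12 libraries placed SMAD3 first (35.3 CPM per kb) and SKIL next (32.6 CPM per kb), with overlapping ranges (28.1 to 39.4 and 23.4 to 37.8 CPM per kb). SKI (14.5 CPM per kb) and SMAD5 (13.9 CPM per kb) followed and also overlapped each other. SMAD4 stood at 3.23 CPM per kb with the narrowest range, 3.10 to 3.33 CPM per kb. SMAD9 (2.61), SMAD2 (2.28), SMAD1 (2.27) and SMAD7 (1.77 CPM per kb) came next and had overlapping ranges, and SMAD6 was last at 0.0813 CPM per kb, its highest library (0.269 CPM per kb) below the lowest of any other member. In bulk RNA, fewer expressing cells and less RNA per cell cannot be told apart. The order depends on the exon length used. SMAD2 has 36366 annotated exon bases, and SMAD1, with 6058 annotated exon bases against 2085 in its longest basic transcript, was 6.59 CPM per kb by that transcript, above SMAD4 at 4.84 CPM per kb by the same measure.

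**Figure D1:**
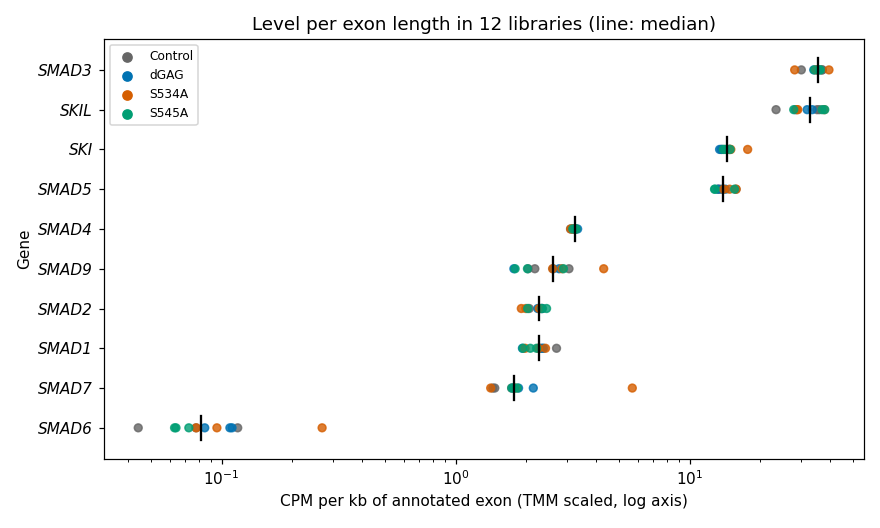
The level of each gene per kilobase of annotated exon (TMM-scaled CPM per kb, log axis) is shown for the 12 libraries as points coloured by genotype, with the median as a line. SMAD3 and SKIL lie near 30 CPM per kb, SMAD6 lies below 0.3, and 1 S534A library stands to the right of the others for SMAD9, SMAD7 and SMAD6.

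SMAD2 (chr18:47808957-47931146, minus strand) and SMAD3 (chr15:67063763-67195195, plus strand), the receptor SMADs of the TGF-β and activin branch, had levels that overlapped between the 4 genotypes. SMAD2 was 75.1, 85.5 and 83.9 CPM in the Control libraries 1, 2 and 3, 84.7, 82.6 and 81.6 CPM in dGAG, 72.6, 69.5 and 82.8 CPM in S534A and 73.9, 85.1 and 89.1 CPM in S545A. The groups overlapped in each of the 6 comparisons, and the largest difference, S534A below dGAG, was a log2 fold change of -0.15 (SE 0.0953, 95% interval -0.355 to 0.060, edgeR adjusted p = 0.890). SMAD3 was 274, 337 and 336 CPM in Control, 309, 321 and 322 CPM in dGAG, 316, 257 and 359 CPM in S534A, and 312, 328 and 330 CPM in S545A. Its log2 fold changes ran from -0.03 (S534A against dGAG) to 0.06 (S545A against S534A), with 95% intervals that stayed within -0.29 and 0.32. Both genes were lowest in S534A replicate 2. There were 3.65 to 4.34 SMAD3 reads for each SMAD2 read in every library.

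Among the BMP-branch receptor SMADs, SMAD5 (chr5:136132845-136188747, plus strand) was the most abundant per kb, at 139, 116 and 118 CPM in Control, 125, 116 and 121 CPM in dGAG, 139, 130 and 123 CPM in S534A, and 137, 113 and 112 CPM in S545A. SMAD1 (chr4:145481194-145558079, plus strand) was 16.4, 14.0 and 13.8 CPM in Control, 11.7, 14.4 and 14.2 CPM in dGAG, 13.7, 12.01 and 14.7 CPM in S534A, and 13.5, 12.6 and 11.8 CPM in S545A. The S545A libraries lay below all 3 Control libraries (exact permutation test, two-sided, p = 0.1, which is the lowest value possible with 3 libraries a group), with a log2 fold change of -0.22 (SE 0.125, edgeR unadjusted p = 0.10, adjusted p = 1.00). SMAD9 (chr13:36844831-36920765, minus strand) was 17.5, 11.7 and 12.5 CPM in Control, 10.2, 15.0 and 15.9 CPM in dGAG, 16.3, 24.6 and 14.9 CPM in S534A, and 16.6, 11.6 and 10.3 CPM in S545A. Its groups overlapped in each comparison, and its largest difference, S545A below S534A, had a log2 fold change of -0.54 (SE 0.250, edgeR unadjusted p = 0.0512, adjusted p = 0.702) and of -0.28 (unadjusted p = 0.276) without S534A replicate 2. Exons of SMAD3, SMAD1 and SMAD5 overlap genes on the opposite strand (AC087482.1, SMAD1-AS1 and SMAD5-AS1), those of SMAD4 and SMAD5 overlap other annotated genes on the same strand, and whether the counting used strand is not given in the sources used here.

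SMAD4 (chr18:51028394-51085045, plus strand), the common partner of both branches, was the steadiest member. It was 42.3, 40.7 and 41.5 CPM in Control, 42.6, 42.9 and 43.6 CPM in dGAG, 41.7, 42.7 and 40.8 CPM in S534A, and 41.6, 42.6 and 43.0 CPM in S545A. The highest library exceeded the lowest 1.07-fold, and the SD of log2(CPM + 1) over the 12 libraries was 0.0307, lower than that of all but 0.0622% of tested genes. Its 95% intervals stayed within -0.19 and 0.20 on the log2 scale in the 6 comparisons. The dGAG libraries lay above the 3 Control libraries without overlap (exact permutation p = 0.1), by a log2 fold change of 0.05 (SE 0.0686, edgeR adjusted p = 1.00).

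The inhibitory SMADs had the lowest median levels per kb. Their SD of log2(CPM + 1) over the 12 libraries exceeded that of 91.2% (SMAD6) and 97.6% (SMAD7) of tested genes, and that of the receptor SMAD SMAD9 exceeded 93.0%. Without S534A replicate 2, the highest library exceeded the lowest 2.66-fold for SMAD6, 1.52-fold for SMAD7, 1.72-fold for SMAD9 and 1.615-fold for SKIL. SMAD6 (chr15:66702228-66782848, plus strand) was near the limit of the data, with 8 to 69 counts per library. It was 1.00, 0.377 and 0.666 CPM in Control, 0.726, 0.929 and 0.948 CPM in dGAG, 0.818, 2.30 and 0.667 CPM in S534A, and 0.620, 0.539 and 0.547 CPM in S545A. The 3 S545A libraries lay below all S534A and all dGAG libraries. The log2 fold change of S545A against S534A was -1.19 (SE 0.458, edgeR unadjusted p = 0.0230, adjusted p = 0.702), and without S534A replicate 2 it was -0.40 (unadjusted p = 0.298). Against dGAG it was -0.60 (SE 0.483, unadjusted p = 0.235).

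SMAD7 (chr18:48919853-48950711, minus strand) was 5.43, 6.41 and 5.33 CPM in Control, 7.94, 6.50 and 6.87 CPM in dGAG, 6.65, 21.0 and 5.22 CPM in S534A, and 6.78, 6.42 and 6.60 CPM in S545A. In the other 11 libraries it stayed between 5.22 and 7.94 CPM, and S534A replicate 2 lay 2.65-fold above the highest of them. The S534A group mean of 10.96 ± 8.74 CPM (SD, n = 3) therefore rests on 1 library. S534A exceeded Control by a log2 fold change of 0.96 (SE 0.401, edgeR unadjusted p = 0.0354, adjusted p = 0.871), and without that library by 0.06 (unadjusted p = 0.679). The dGAG and the S545A libraries each lay above the 3 Control libraries (exact permutation p = 0.1 for both), with log2 fold changes of 0.31 (SE 0.407, edgeR adjusted p = 1.00) and 0.21 (SE 0.406, adjusted p = 1.00).

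Promoter windows of the inhibitory SMADs are shown with matches to motifs that SMAD complexes are known to bind. These are GTCTAGAC, a palindrome read alike on both strands, and the shorter CAGAC. RefSeq windows of 250 bases before to 50 bases after a transcription start (GRCh38.p14) were found for 9 members and not for SKI, 20 windows in all. The SMAD6 window (chr15:66701986-66702285, plus strand) and the SMAD7 window farthest upstream (chr18:48950916-48951215, minus strand, beyond the gene end used for counting) follow, with matches to either motif on either strand in capitals. 
SMAD6: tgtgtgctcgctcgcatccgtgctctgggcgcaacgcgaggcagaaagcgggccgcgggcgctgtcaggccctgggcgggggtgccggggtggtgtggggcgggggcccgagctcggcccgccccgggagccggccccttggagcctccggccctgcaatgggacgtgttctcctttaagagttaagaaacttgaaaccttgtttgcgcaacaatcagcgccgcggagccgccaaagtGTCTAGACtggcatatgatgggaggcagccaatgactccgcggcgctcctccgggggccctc
SMAD7: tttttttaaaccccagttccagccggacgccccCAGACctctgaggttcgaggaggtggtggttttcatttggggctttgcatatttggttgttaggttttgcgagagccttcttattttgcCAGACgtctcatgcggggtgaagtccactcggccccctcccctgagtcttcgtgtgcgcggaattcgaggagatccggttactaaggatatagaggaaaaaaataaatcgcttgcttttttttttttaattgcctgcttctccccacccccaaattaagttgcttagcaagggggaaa
The SMAD6 window holds GTCTAGAC once, at position -12 from the start, and 0.202% of all 35116 windows hold it on either strand. This SMAD7 window holds CAGAC at positions -217 and -128, and 45.3% of all windows hold CAGAC or its reverse complement GTCTG. The other SMAD7 windows, not printed, hold 1 match to CAGAC (chr18:48949284-48949583) and 0 matches (chr18:48942758-48943057). Of the 20 windows of members, 1 holds GTCTAGAC and 8 hold CAGAC. A match describes letters in this window. Binding was not measured, and its part in the levels was not tested.

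SKI (chr1:2228695-2310119, plus strand) was 90.2, 85.5 and 83.1 CPM in Control, 81.7, 83.5 and 89.9 CPM in dGAG, 90.0, 108 and 91.3 CPM in S534A, and 90.6, 84.8 and 86.8 CPM in S545A. The 3 S534A libraries lay above the 3 dGAG libraries, the lowest of one at 90.0 CPM and the highest of the other at 89.9 CPM. The log2 fold change was 0.18 (SE 0.0857, edgeR unadjusted p = 0.0577, adjusted p = 0.890), and it was 0.09 (unadjusted p = 0.215) without S534A replicate 2. SKIL (chr3:170357678-170396835, plus strand) was 182, 273 and 279 CPM in Control, 221, 260 and 248 CPM in dGAG, 224, 226 and 293 CPM in S534A, and 217, 294 and 287 CPM in S545A. Its group means were 245 ± 54.2 CPM in Control, 243 ± 20.1 CPM in dGAG, 248 ± 39.3 CPM in S534A and 266 ± 42.8 CPM in S545A (SD, n = 3), closer to each other than the libraries of any one group. The 95% intervals of its 6 log2 fold changes lay within -0.39 and 0.51.

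**Figure D2:**
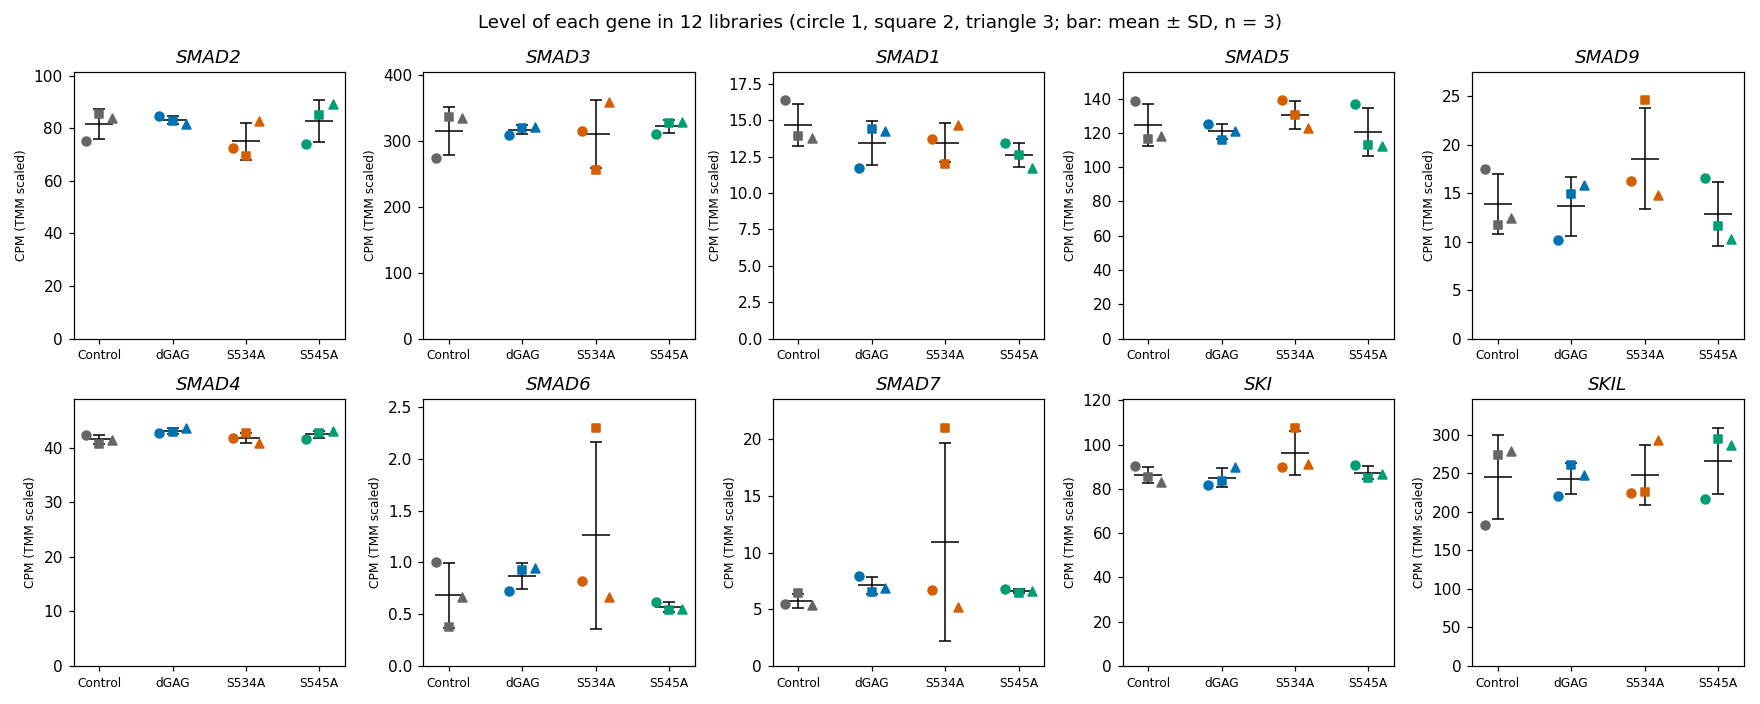
TMM-scaled CPM of each member is shown for the 4 genotypes, with circles, squares and triangles for replicates 1, 2 and 3 and bars for the mean ± SD (n = 3). SMAD4 lies between 40.7 and 43.6 CPM throughout, and S534A replicate 2 is the highest point for SMAD9, SMAD6, SMAD7 and SKI.

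No member reached an adjusted p under 0.05 in any of the 6 comparisons by edgeR's quasi-likelihood test with Benjamini-Hochberg adjustment over the 16069 genes tested, where 0% of all genes did so in each comparison. At an unadjusted p under 0.05 there were 0 of 10 members in S534A against dGAG (2.99% of all genes), 0 in S545A against dGAG (1.1%), 0 in dGAG against Control (0.871%), 1 in S534A against Control (SMAD7, 3.45%), 0 in S545A against Control (1.05%) and 1 in S545A against S534A (SMAD6, 4.78%). Over the 4 groups together, 0 members passed the adjusted threshold, against 0.00622% of all genes (CHI3L2 alone), and 0 passed the unadjusted one, against 1.55%, with SMAD6 closest (unadjusted p = 0.0969). The number of members whose groups did not overlap was 1 in S534A against dGAG (5.66% of all genes), 1 in S545A against dGAG (5.05%), 2 in dGAG against Control (4.87%), 0 in S534A against Control (7.65%), 2 in S545A against Control (8.82%) and 1 in S545A against S534A (10.1%). The median log2 fold change of the 10 members lay between -0.10 (S545A against S534A) and 0.07 (S534A against dGAG), where that of all tested genes lay between -0.01 and 0.01. With both libraries numbered 1 of dGAG and Control left out, dGAG against Control likewise gave 0 members at either threshold, although the sign turned for SMAD1, SMAD2, SMAD3, SMAD5, SMAD9 and SKI.

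**Figure D3:**
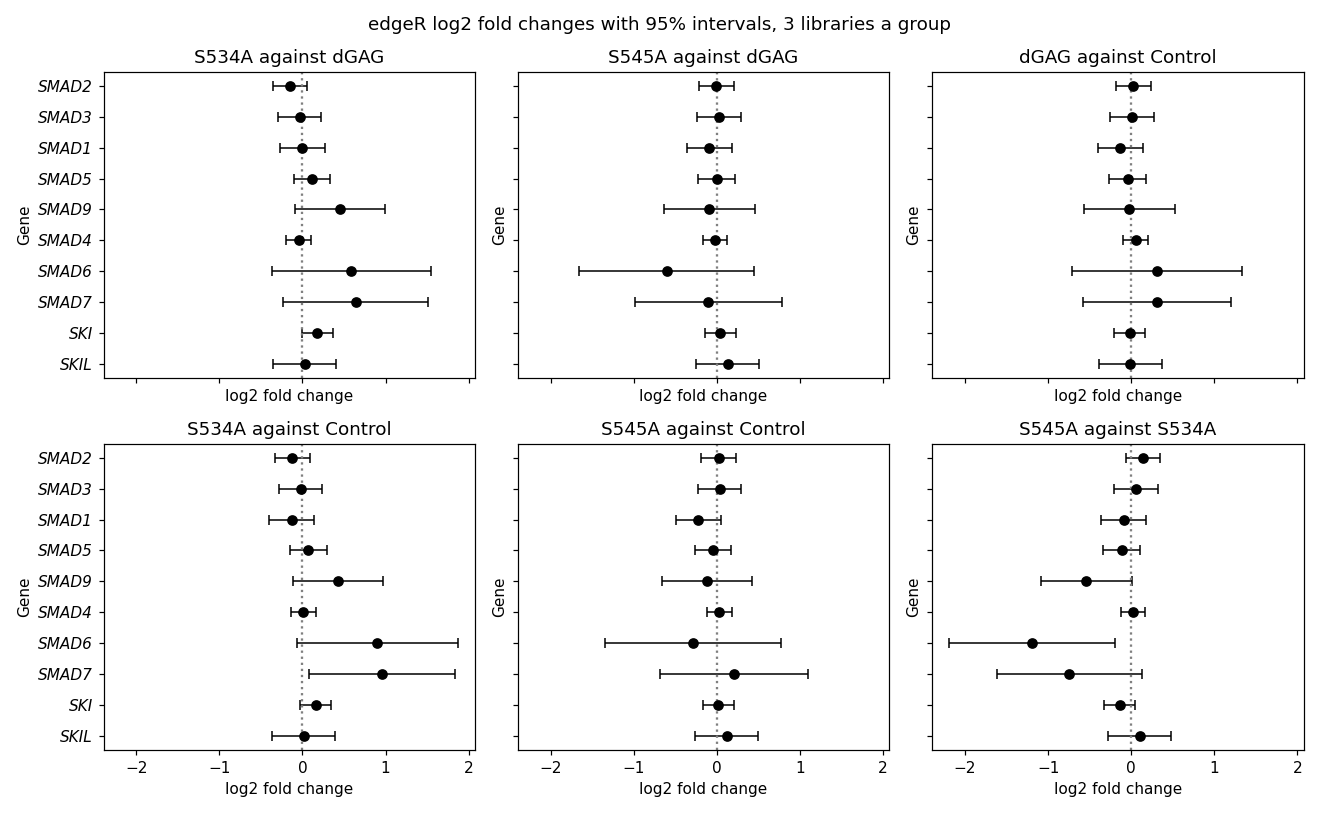
Log2 fold changes of the 10 members (points) with their 95% intervals (bars) from edgeR are shown for the 6 comparisons of 3 libraries against 3. The intervals of SMAD7 in S534A against Control and of SMAD6 in S545A against S534A leave 0 out, and those of SMAD4 are the narrowest.

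S534A replicate 2 was the highest library for 4 of the 10 members (SMAD6, SMAD7, SMAD9 and SKI) and the lowest for 2 (SMAD2 and SMAD3), beside 26.1% and 25.4% of all tested genes. It exceeded each of the other 11 libraries more than 2-fold for 2 members, SMAD6 (2.30-fold the next) and SMAD7 (2.65-fold), which 0.728% of tested genes did. Of 17 tested target genes of the 2 receptor SMAD branches, it was the highest library for 11 and more than 2-fold above every other for 5. TGFBI, a matrix protein induced by TGF-β, was 1763 CPM there and 179 to 471 CPM elsewhere. PMEPA1, an inhibitor of receptor SMAD activation and itself a SMAD target, was 73.3 CPM against 18.5 to 27.4 CPM. ID1, ID2 and ID3, transcriptional inhibitors induced by BMPs, were 168, 2.47 and 71.3 CPM, where the highest of the other libraries held 66.6, 0.548 and 29.1 CPM. CTGF (564 CPM) lay within the range of the others (353 to 1041 CPM), and HEY1 (5.94 CPM) lay below it (10.9 to 17.2 CPM). In the same library the 10 endoplasmic reticulum stress genes summed to 839 CPM against 2603 to 18360 CPM elsewhere. It was also the lowest library for 3 of 7 tested epithelial markers (KRT7, KRT18 and EPCAM), 2 of 4 mesenchymal markers (FN1 and ZEB1) and 2 of 3 endothelial markers (CDH5 and VWF). For 1 epithelial marker, WT1, it was the highest (8.376 CPM against at most 7.507 CPM elsewhere). The remaining tested markers, among them KRT8, VIM and CDH2, lay within the range of the other libraries. FN1, which encodes the matrix protein fibronectin and is known to be induced by TGF-β, was 321 CPM there and 430 to 1412 CPM elsewhere, the opposite of TGFBI. The part of these in the inhibitory SMAD levels was not tested.

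**Figure D4:**
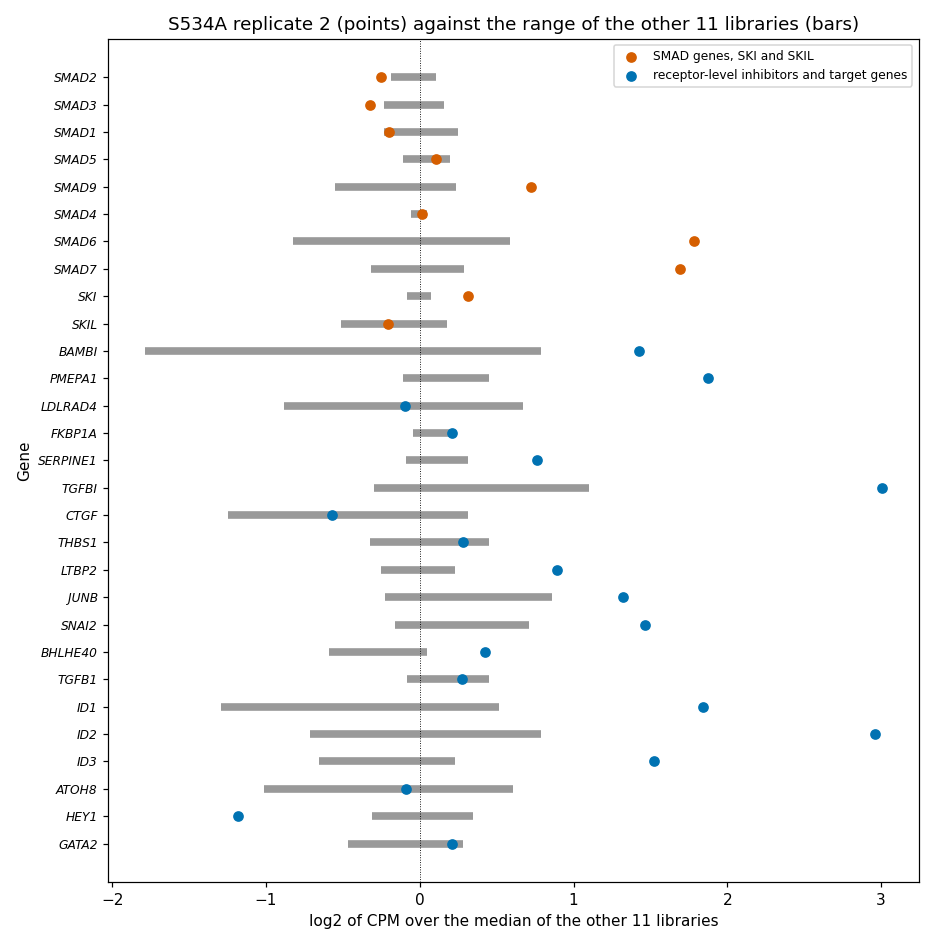
The level in S534A replicate 2 (points) is shown as the log2 of its CPM over the median of the other 11 libraries, with the range of those 11 as grey bars, for the 10 members and for receptor-level inhibitors and target genes. SMAD6, SMAD7, SMAD9 and SKI lie to the right of their bars, as do TGFBI, PMEPA1, LTBP2, ID1, ID2 and ID3, while SMAD2, SMAD3 and HEY1 lie to the left.

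SKIL, SMAD5 and SMAD3 separated by replicate number within 3 of the genotypes, a pattern chosen after the values were seen. In Control, dGAG and S545A, the libraries numbered 1 held 182 to 221 CPM of SKIL and those numbered 2 and 3 held 248 to 294 CPM. SMAD5 ran the other way, at 125 to 139 CPM in the libraries numbered 1 and 112 to 121 CPM in the others. SMAD3 was 274 to 312 CPM in the former and 321 to 337 CPM in the latter. These 3 of 10 members did not overlap between the numbers, as was so for 16.1% of tested genes, and no source used here gives the numbers a batch or day. Within a library, SKIL per kb was 1.58 to 2.71 times SKI per kb, lowest in Control replicate 1. Across the 12 libraries, which share genotypes and, in part, near-identical pairs, Pearson's r of log2(CPM + 1) between SMAD5 and SKIL was -0.86, between SMAD5 and SMAD2 -0.86, and between SMAD3 and SKIL 0.76. The strongest pair of members was SMAD2 and SMAD9 at -0.90, and SMAD9 and SKI reached 0.86 (-0.84 and 0.73 without S534A replicate 2). SMAD6 and SMAD7 had an r of 0.82, which was -0.05 without S534A replicate 2.

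**Figure D5:**
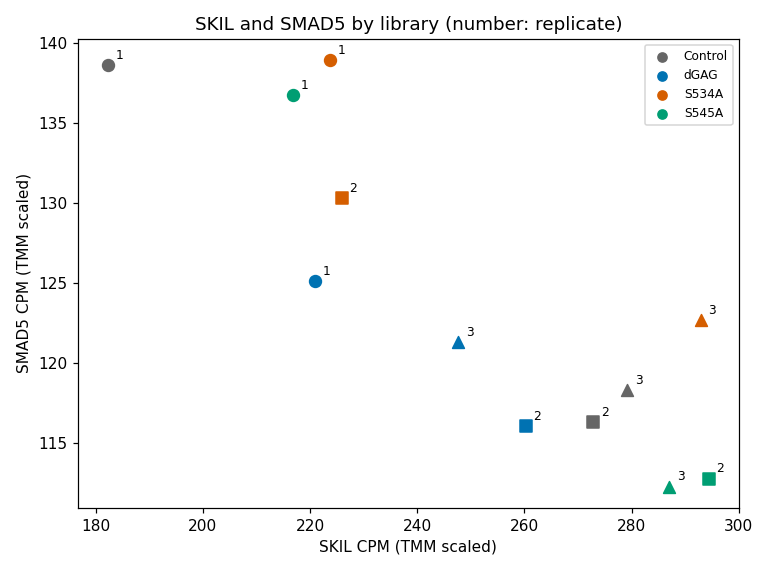
CPM of SMAD5 is plotted against CPM of SKIL for the 12 libraries, coloured by genotype and numbered by replicate (neither axis starts at 0). The 4 libraries numbered 1 and S534A replicate 2 lie at the upper left, between 182 and 226 CPM of SKIL, and the other 7 at the lower right.

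S545A and Control were also set side by side within replicate number, since their same-numbered libraries deviated together, a pairing read from these data. Libraries 2 and 3 were near-identical in each group (chi-square per degree of freedom 1.43 in Control and 1.40 in S545A). Pairs 2 and 3 are therefore not separate observations. TGFBR3 also went against the label in Control libraries 2 and 3. SMAD7 and SKIL were higher in S545A in 3 of 3 pairs, as were 18.8% of tested genes, and SMAD1, SMAD5 and SMAD9 were lower in 3 of 3, as were 20.5%. For SKIL the differences in log2(CPM + 1) were 0.25, 0.11 and 0.04, and for SMAD1 they were -0.26, -0.13 and -0.21. For SMAD7 they were 0.28, 0.00 and 0.26.

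The genes whose levels over the 12 libraries most resembled each member, by Pearson's r of log2(CPM + 1), were HLA-E, PVR and KLF9 for SMAD2 (r of 0.98 each), and CH17-431G21.1, FGFR1OP2 and CGGBP1 for SMAD3 (0.95 to 0.97). For the BMP branch they were EIF2AK1, FZD5 and TPGS2 for SMAD1 (0.91 to 0.92), PPAT, WDR12 and RRP1B for SMAD5 (0.96 each) and PRADC1, FOXD1 and SLBP for SMAD9 (0.98 each). SMAD4, with almost no variation to share, reached 0.87 with DUSP4, 0.85 with ZNF32-AS2 and 0.83 with MTMR9. DHRS2, FTH1 and COL7A1 came closest to SMAD7 at 0.98 each and fell to 0.73, 0.74 and 0.77 without S534A replicate 2. RP11-654C20.1, MAP2K1 and TMX4 came closest to SMAD6 (0.95 to 0.96), ZNF443, TBC1D9B and ZNF672 to SKI (0.95 to 0.96) and RP11-380J14.1, EPS8L2 and TBC1D23 to SKIL (0.96 each). Without S534A replicate 2, r was 0.83, 0.84 and 0.93 for the genes of SMAD6 and 0.90, 0.86 and 0.81 for those of SKI. It was 0.95, 0.92 and 0.91 for those of SMAD3.

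Other genes that act on SMADs, and known SMAD targets, were counted at an unadjusted p under 0.05 by edgeR, beside the share of all tested genes that passed in the same comparison, and none of them had an adjusted p under 0.05. Of 16 tested ubiquitin ligases, deubiquitinases and phosphatases of SMADs, such as SMURF1 and SMURF2, 0 passed in any of the 6 comparisons (0.871% to 4.78% of all genes). Of 13 tested adaptors, corepressors and coactivators, 1 passed in S545A against S534A (4.78% of all genes), namely TGIF1, a corepressor of SMAD2, which was higher in S545A (log2 fold change 0.48, SE 0.217, unadjusted p = 0.0492, adjusted p = 0.702). Of 11 tested receptors, BMPR1B, a type I BMP receptor, was lower in S545A than in S534A (log2 fold change -1.15, SE 0.389, unadjusted p = 0.0122, adjusted p = 0.702), and TGFBR3 was higher in S545A than in dGAG (2.42, SE 1.02, unadjusted p = 0.0354, adjusted p = 1.00), where 1.1% of all genes passed.

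In S534A against Control, 3 of 10 tested SMAD2/3 target genes passed (3.45% of all genes), all higher in S534A. These were TGFBI (log2 fold change 1.54, SE 0.691), PMEPA1 (0.91, SE 0.396) and LTBP2 (0.56, SE 0.187). In S545A against S534A, 2 of the 10 passed (4.78% of all genes), TGFBI (-1.60, SE 0.692) and PMEPA1 (-0.90, SE 0.396), both lower in S545A. Of 7 tested SMAD1/5/9 target genes, ID2 was higher in S534A than in dGAG (1.82, SE 0.694), where 2.99% of all genes passed, and than in Control (1.46, SE 0.653), and ID2 (-1.87, SE 0.683) and ID3 (-0.84, SE 0.370) were lower in S545A than in S534A. The comparisons share the S534A libraries. Of the corepressors, receptors and target genes given so far with a fold change, each except TGFBR3 and TGIF1 was highest in S534A replicate 2. Without that library, LTBP2 was the 1 gene of the 2 target lists still under the unadjusted threshold in these 3 comparisons. It passed in S534A against Control (0.23, SE 0.0993, edgeR unadjusted p = 0.0431), and TGIF1 (unadjusted p = 0.140) and BMPR1B (unadjusted p = 0.0915) were above the threshold. The mesenchymal markers FN1 (-1.18, SE 0.382, unadjusted p = 0.0110) and VIM (-0.22, SE 0.0950, unadjusted p = 0.0451), on neither target list, stayed under it, both lower in S534A than in dGAG. The median log2 fold change of the 7 SMAD1/5/9 targets in S534A against dGAG was 0.81 with all libraries and 0.13 without S534A replicate 2, and that of the 10 SMAD2/3 targets in S534A against Control was 0.38 and -0.06. With all libraries, 5 of 10 endoplasmic reticulum stress genes passed in S534A against dGAG (0 without S534A replicate 2), all lower in S534A. The 4 with the smallest p were DDIT3 (-2.965, SE 1.214), PDIA4 (-1.355, SE 0.572), HERPUD1 (-2.20, SE 0.971) and HSPA5 (-2.03, SE 0.908). FN1 (-1.335, SE 0.335) and VIM (-0.20, SE 0.0876) were lower there too, and FN1 in S545A against dGAG (-0.94, SE 0.332). Each was highest in dGAG replicate 1.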

How the data were processed

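RNA-seq of 12 HEYA8 libraries in 4 genotype groups was used, grouped by the genotype label. Per the labels, libraries were made from total RNA with a directional kit, and the submitters' processing notes name FastQC, Trim Galore 0.4.5, STAR 2.4, SAMtools 1.2 and featureCounts. The authors deposited raw counts per gene, without normalization. Those notes list the mouse build mm10, but 33622 of the 36113 table symbols found in GENCODE 29 have the same chromosome, start and end there, as do 9 of the 10 members (the end of SMAD7 differs), so coordinates are given as GRCh38. Whether strand was used in counting is not given in the sources used here. The 37 mitochondrial genes hold no counts.

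The members and gene lists were chosen with earlier results of these data known. Each member is named. All members were refitted under each alternative, and in each comparison the members with an unadjusted p under 0.05, or else the 1 with the smallest p, were described one by one. For each member the 3 genes most like it were named, and up to 4 genes of each list and comparison at an unadjusted p under 0.05. TGFBR3 and HSPA5 were named as checks of the libraries, and the other genes described for S534A replicate 2, together with CHI3L2, were chosen after their values were seen. The counts were filtered with filterByExpr (minimum count 10), scaled by TMM and tested in R 4.3.3 with the robust quasi-likelihood test of edgeR 4.0.16, all 4 groups in one model, with Benjamini-Hochberg adjustment over 16069 genes. The biological coefficient of variation was 0.163. P-values measure the spread between these libraries, which are not stated to be separate cultures. Deviations from the group means correlated between same-numbered S545A and Control libraries (0.73, 0.48 and 0.48), and on that basis alone the numbers were taken as pairs there. In the other 5 comparisons at least 1 correlation was under 0.1. The alternatives were DESeq2 1.42.0, limma-voom (limma 3.58.1), RLE factors, library size only, 2 other filters on low counts, a model of only the groups compared, a block for replicate number, leaving out each replicate, both libraries numbered 1 of dGAG and Control left out, and libraries 2 and 3 summed in S545A, dGAG and Control. Leaving S534A replicate 2 out of the gene lists was added after seeing the data.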

Additional observations from a re-analysis of the deposited data

How the results depend on the processing

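Under 22 alternatives no member had an adjusted p under 0.05 in any comparison (smallest 0.305), and 33 of the 60 member fold changes kept their sign in every alternative. The number of members at an unadjusted p under 0.05 moved as follows. In S534A against dGAG (0 in the model of 4 groups) it was 1 with library size only and 0 to 4 with a replicate left out. In S545A against dGAG (0) it was 1 with only the 2 groups compared. In S534A against Control (1) it was 0 with limma-voom, with the replicate block, with libraries 2 and 3 summed and with only the 2 groups compared, 2 with both libraries numbered 1 left out, and 0 to 2 with a replicate left out (0 without S534A replicate 2 or Control replicate 3). In S545A against S534A (1) it was 2 with DESeq2 and with library size only, 0 with at least 10 counts in every library, where SMAD6 is not tested, 0 with libraries 2 and 3 summed, and 0 to 4 with a replicate left out (0 without S534A replicate 2, S545A replicate 2 or S545A replicate 3). Over the 4 groups (0) it was 1 with no filter and 0 to 2 with a replicate left out. The log2 fold change of SMAD1 in dGAG against Control (-0.13) was 0.041 with both libraries numbered 1 left out. These counts can hold other members. SMAD7 in S534A against Control lost its unadjusted call in each setting given with 0, and also with no filter (unadjusted p = 0.0698, SMAD6 passing instead), with both libraries numbered 1 left out (0.0970) and without Control replicate 1 (0.0833), where SMAD6 and SMAD9 passed. SMAD6 in S545A against S534A likewise had an unadjusted p of 0.0522 with limma-voom, where SMAD9 passed. Over the alternatives the log2 fold change of the first lay between 0.06 and 1.28 and that of the second between -1.45 and -0.40. In a paired fit with the replicate block, SMAD7 in S534A against Control was 0.82 (unadjusted p = 0.0569), and the block changed no other call of a member. The cause of these changes was not tested. Depth limits SMAD6 most, at 8 to 69 counts, and 3 libraries a group limit every comparison. A p that misses the threshold does not show that levels were equal.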
